A study of Mus musculus with 142 samples.

Results

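The experiment described here is the deletion of the whole of ERCE B on the CAST allele, with no other deletion of the Dppa domain on that allele. The members are the CAST replication timing (RT) profiles of 8 libraries from 4 clones, of 66 libraries from 53 clones in the series that have profiles. They were chosen by the allele and deletion in the column names, not by any measured value. The clones are 2A.2, 3C.4 and 5A.6 of the line AOSN.B.COSN123 and 5A.7 of the line A.B.COSN123. Their controls are 6 CAST profiles of 3 clones, namely 1A.4 and 5A.2 of AOSN.B.COSN123 and 2E.1 of A.B.COSN123, in which the CAST allele kept ERCE B. Each clone has 2 libraries, numbered as replicates in the labels and called cultures below. The labels do not say whether these were grown apart.

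All 14 libraries come from F121-9, a hybrid mouse embryonic stem cell (mESC) line with a musculus and a castaneus (CAST) copy of each autosome, grown in 2i and LIF. On the musculus allele, all 7 clones carry the deletion of ERCE B and of the 3 Oct4, Sox2 and Nanog (OSN) binding sites of ERCE C. Clones of AOSN.B.COSN123 also lack the OSN site of ERCE A on that allele, and clones of A.B.COSN123 lack the whole of ERCE A there. ∆B on CAST was thus never measured beside an intact musculus allele, and the ∆B clones lack ERCE B on both alleles (marked hom in the labels), whereas the controls lack it only on musculus (marked het). The study's text states that the triple C deletion was recovered in 1 clone and that further deletions were brought into it, so the 7 clones share an origin as far as the text tells. A.B.COSN123 supplies 1 clone to each side. Below, a ∆B clone is one whose CAST allele lacks ERCE B, and the spread given is that between clones.

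RT is the time within S phase at which a stretch of the chromosome is copied. E/L Repli-seq labels new DNA with BrdU, sorts cells into early and late S phase and compares the labelled DNA of both fractions, so that a positive log2(E/L) is early and a negative one late. An early replication control element (ERCE) is a segment of a chromosome that acts in cis for the early replication of the domain around it. The study describes ERCEs as cooperative and redundant. For clones of an earlier study with B deleted alone, it reports a small delay that was significant by its own area measure against random regions. The Dppa domain holds 3 of them, called A, B and C, and lies between late-replicating, lamina-associated stretches. Its genes are Dppa4 and Dppa2, whose products bind chromatin in pluripotent cells and the early embryo, and Morc1, which silences transposons in the male germ line. ERCE B holds a pair of OSN sites, BOSN1 and BOSN2, on either side of the Morc1 promoter, BTSS.

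The deletion is defined by a pair of guide RNAs, shown here because their cut sites set which bases the CAST allele lost. Both matched mouse chromosome 16 once (GRCm38.p6, the build of the files), and the capitals mark the PAM:
B-G1, chr16:48396802-48396824, minus strand: cacgtacacagctgcggtagTGG
B-G2, chr16:48443051-48443073, minus strand: tcagagacggaatcgcatcaTGG
Cutting 3 bases before each PAM removes chr16:48396808-48443056, which is 46249 bp with a GC content of 42.0%. The reference at both ends of the deletion reads as follows on the plus strand, with the deleted bases in capitals:
left end, chr16:48396793-48396822: tttcttcctccactaCCGCAGCTGTGTACG
right end, chr16:48443042-48443071: GGATATTGTCCATGAtgcgattccgtctct
The junctions of the single clones were not analysed here. The segment starts 84.9 kb after the end of the A deletion and ends 138 kb before the start of the C deletion. It holds BOSN1 (377 bp), BTSS (140 bp), BOSN2 (496 bp), the whole of the predicted gene Gm5485 on the minus strand, and the first 3 of the 27 exons of Morc1, which runs on the plus strand from 48431237 to 48630900. The deleted part of Morc1 is 11.82 kb, or 5.92% of the gene, and includes its start.

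The octamer ATGCAAAT, which Oct4 and its relatives bind, occurred 5 times in the deleted segment when both strands were searched. The match at the edge of BOSN1 is shown with the octamer in capitals:
octamer at BOSN1, chr16:48422702-48422727, plus strand: tctataaagATGCAAATgaggaagtc
Of 2047 tiles of chromosome 16 of the same length, 96.2% held at least 1 octamer, 44.3% held 5 or more, and the median was 4. The number in ERCE B was therefore close to that of other stretches of this length.

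The value in a 50 kb window was present in 76.6% to 89.9% of windows in the 14 CAST profiles (median 85.7%). Values are ratios, so the depth in reads is unknown. Both lowest shares belonged to ∆B clone 5A.7 (80.1% and 76.6%), whose profiles also had the highest mean (0.128 and 0.194) and the lowest SD (0.935 and 0.901) over all windows. The part of these features in the results below was not tested. Each profile correlated with the mean of the other clones at 0.964 to 0.986 across windows, which share library and smoothing and are not replicates, with clone 5A.7 at 0.983 and 0.982. CAST chromosome 11 had no value in clones 5A.7 and 2E.1, nor CAST chromosome 13 in clone 3C.4. At Pou5f1, Sox2, Nanog, Klf4, Esrrb and Zfp42, the 6 pluripotency loci used to check the cell type, 83 of 83 CAST values were above 0 (0.33 to 1.54). The 8 windows of the Dppa domain had a value in all 14 libraries. Those from 48350001 to 48400000 and from 48400001 to 48450000 lost 6.39% and 86.1% of their bases on ∆B alleles and still carry a value there. Loess smoothing by the authors draws each value from its neighbours too.

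The Dppa domain (chr16:48200001-48600000) stayed early on the CAST allele without ERCE B, with a mean log2(E/L) of 0.85 ± 0.17 (SD, n = 4 clones) against 1.02 ± 0.08 (SD, n = 3 clones) in controls. The difference did not pass the test, and of the clones left out in turn, 5A.7 moved it most. Both cultures of ∆B clone 5A.7 were low, at 0.63 and 0.58. Clone 2A.2 had 0.92 and 0.81, clone 3C.4 0.94 and 0.98, and clone 5A.6 1.02 and 0.96. All 8 ∆B libraries thus had a positive, early value. Control clone 2E.1 had 1.08 and 1.07, and control clone 5A.2 had 1.04 and 1.07. Control clone 1A.4 had 1.16 in culture 1 and 0.68 in culture 2, and that last value lies below those of all ∆B libraries except both of 5A.7. The gap between cultures of 1A.4 was 0.48, against a median gap of 0.044 over the 7 clones and a pooled SD between cultures of 0.13.

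Averaged to clones, the ∆B alleles had 0.61 (5A.7), 0.86 (2A.2), 0.96 (3C.4) and 0.99 (5A.6), and the controls 1.08 (2E.1), 0.92 (1A.4) and 1.06 (5A.2). The groups overlapped, with 2 of 4 ∆B clones below all controls. The mean difference was −0.17 (SE 0.099). The two-sided exact permutation test over clones gave p = 0.200, and p = 0.543 after Benjamini-Hochberg adjustment over the 6 intervals tested, where the smallest p that 35 assignments allow is 0.0286. Without clone 5A.7 the difference was −0.083 (exact permutation p = 0.3), and without culture 2 of control clone 1A.4 it was −0.25 (exact permutation p = 0.086). After centring each profile on the rest of chromosome 16 (outside chr16:46500001-50500000) it was −0.28 (exact permutation p = 0.114). This centring also moved the median difference over all windows with a value in all 7 clones, from 0.021 to −0.095. Differences given after centring therefore hold a shift that is not particular to the domain. The profiles differ in which windows have a value, and the part of this in the shift was not tested.

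**Figure D1:**
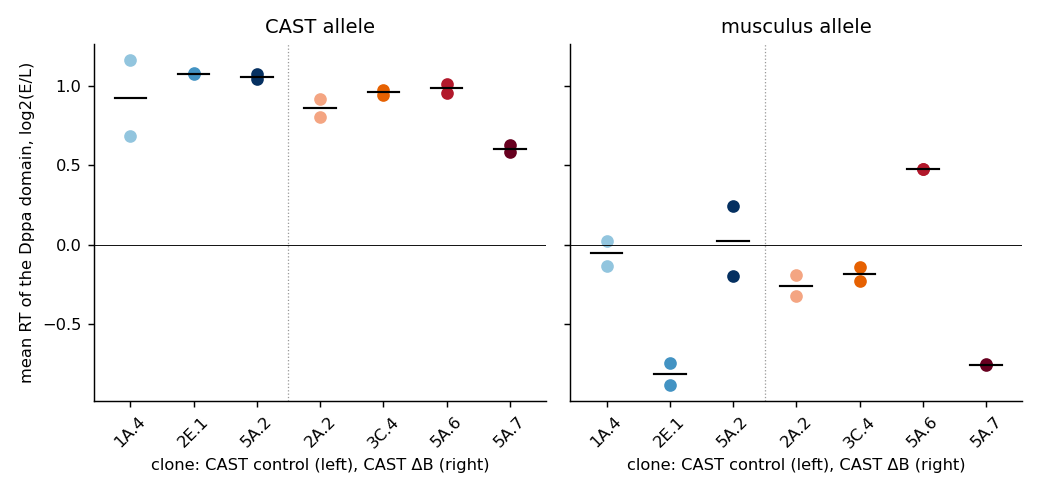
Mean log2(E/L) of the Dppa domain (vertical axis) in each library of the 7 clones, for the CAST and the musculus allele. Points are single cultures and black bars are clone means; on CAST both cultures of ∆B clone 5A.7 lie lowest, and culture 2 of control clone 1A.4 (0.68) lies apart from culture 1 (1.16).

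The lines gave differences of unequal size. Within AOSN.B.COSN123, the 3 ∆B clones averaged 0.94 and the 2 controls 0.99, a difference of −0.054. Within A.B.COSN123, the ∆B clone had 0.61 and the control clone 1.08, a difference of −0.47. Both differences were negative, and the difference between the lines was not tested. Since A.B.COSN123 has a single clone on each side, the line and the clone cannot be told apart. With the line as a block the difference was −0.18 (exact permutation p = 0.3, smallest possible p 0.05).

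The area between each clone's profile and the control mean was taken over chr16:47500001-49500000, which takes in both flanks. Its unit is log2(E/L) times 50 kb windows, so its spread cannot be set against that of the domain mean. It was −10.1 in clone 5A.7, −3.94 in 2A.2, −5.08 in 5A.6 and 1.80 in 3C.4, so that 3 of 4 ∆B clones had a smaller area than the control mean. The controls lay at 3.67 (2E.1), −2.53 (1A.4) and −1.14 (5A.2) around their own mean. The mean difference of −4.32 (SE 3.08) did not pass the test (exact permutation p = 0.286, adjusted p = 0.543). It was −8.81 after centring on the rest of chromosome 16 and −7.13 after scaling by the SD of each profile (exact permutation p = 0.314 and 0.257), and −2.41 without clone 5A.7 and −2.49 without control clone 2E.1. Within AOSN.B.COSN123 it was −0.57 and within A.B.COSN123 it was −13.7.

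**Figure D2:**
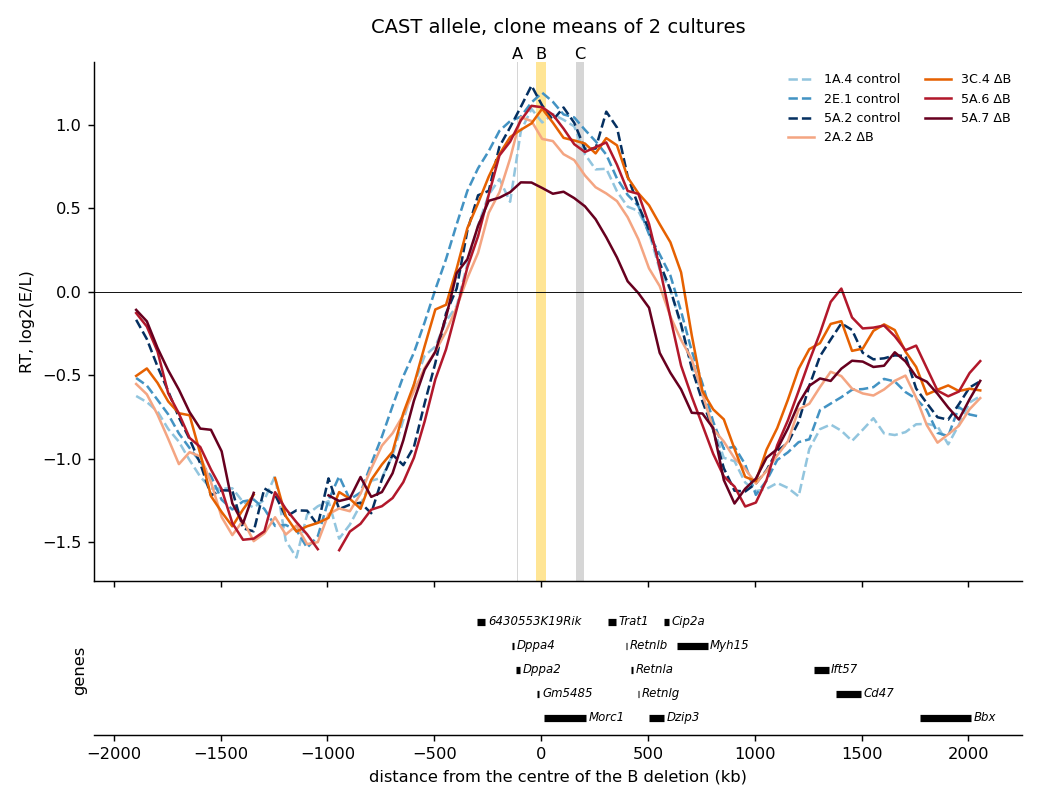
CAST log2(E/L) of each clone (vertical axis) against the distance in kb from the centre of the B deletion (horizontal axis), with bands for ERCEs A, B and C and the genes drawn below. ∆B and control clones have an early peak at the windows of ERCE A or B, and ∆B clone 5A.7 has the lowest peak, at 0.66.

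The early peak was described by the place and value of its earliest window and by its width. The earliest window began between 48300001 and 48400001 in ∆B clones and between 48350001 and 48400001 in controls. It was the window of ERCE A (48300001) in ∆B clones 5A.7 and 2A.2, and a window of ERCE B in the other clones. Its value was 0.98 ± 0.22 (SD, n = 4 clones) without ERCE B and 1.17 ± 0.07 (SD, n = 3 clones) with it. The stretch above 0 around this window measured 850 to 1100 kb in ∆B clones and 1000 to 1150 kb in controls, ranges that overlap. In the windows that hold ERCE B, the mean was 0.94 ± 0.21 (SD, n = 4 clones) in ∆B clones and 1.13 ± 0.07 (SD, n = 3 clones) in controls. At the window of ERCE A, which is intact on these alleles, it was 0.92 ± 0.18 against 1.04 ± 0.07, and at those of ERCE C, also intact, 0.76 ± 0.16 against 0.95 ± 0.05 (SD over the same clones). The window of ERCE A was earlier than those of ERCE C by 0.165 ± 0.099 in ∆B clones and by 0.090 ± 0.073 in controls. These levels and gaps were not tested.

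Window by window, the mean of the ∆B clones was below the control mean in 8 of 8 windows of the Dppa domain, by 0.044 to 0.23. It was also lower in 14 of 14 windows of the left flank (chr16:47500001-48200000) and in 15 of 18 of the right flank (chr16:48600001-49500000), but in 0 of the 20 windows beyond it (chr16:49500001-50500000). Over all windows tested, 41.9% were lower. Neighbouring windows share smoothed reads, so these counts are a description. Against every CAST control clone of the series, the mean difference was 0.012 in the left flank and 0.048 in the right flank. Within the domain, clone 5A.7 lay below the control mean in 8 windows (mean difference −0.41), and the other clones in 7 windows each, with mean differences of −0.16 in 2A.2, −0.060 in 3C.4 and −0.033 in 5A.6. In the right flank, clone 3C.4 differed from the other ∆B clones, with 1 of 18 windows below the control mean, against 16 in 5A.7, 12 in 2A.2 and 12 in 5A.6.

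**Figure D3:**
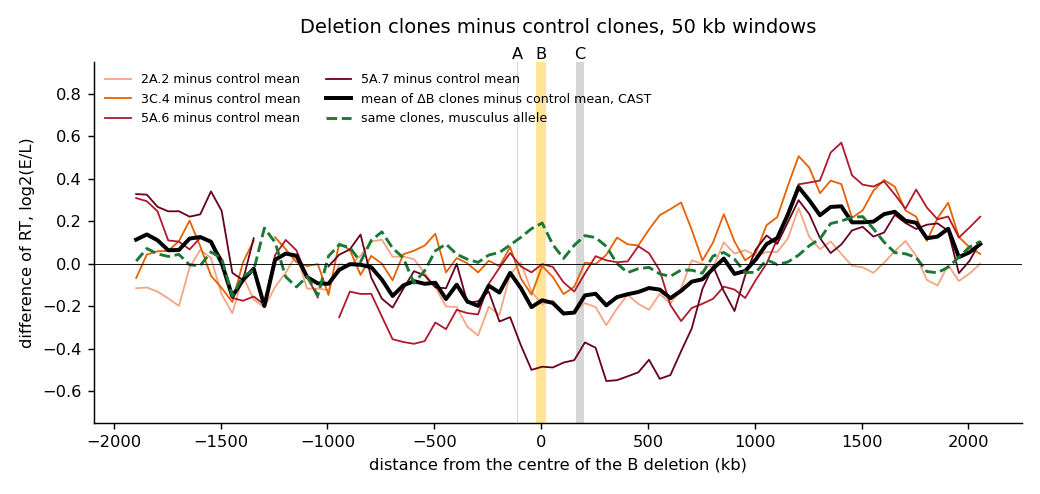
Difference in CAST log2(E/L) between each ∆B clone and the control mean (vertical axis) against the distance in kb from the centre of the B deletion (horizontal axis), with the mean of the 4 clones in black and that of their musculus alleles as a dashed green line. The black line is below 0 in all windows of the Dppa domain and above 0 in the 20 windows beyond the right flank.

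Within the Dppa domain, the groups separated completely only near its right end, in the body of Morc1 that the deletion leaves in place. At chr16:48500001-48550000, the ∆B clones had 0.60 (5A.7), 0.82 (2A.2), 0.92 (3C.4) and 0.98 (5A.6), and the controls 1.06 (2E.1), 1.03 (1A.4) and 1.10 (5A.2). At chr16:48550001-48600000, they had 0.56, 0.79, 0.91 and 0.88 in the same order, against 1.05, 0.99 and 1.01. All ∆B clones were below all controls in both windows. Such a complete separation in the lower direction occurred in 2 of the 74 windows tested of the surrounding region (chr16:46500001-50500000) and in 503 of 36909 windows over the autosomes, which is 1.36%. In limma, fitted to all windows with a value in all 7 clones (17 autosomes, without 11 and 13), these windows had differences of −0.23 (SE 0.109 and 0.107) and an unadjusted p of 0.0492 each, with a Benjamini-Hochberg adjusted p of 1.00.

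The adjusted p passed the threshold of 0.05 in 0 of 36909 windows (0%), and so in 0 of the 74 windows of this region. At an unadjusted p of 0.05 or less in limma, 259 windows were lower on the ∆B allele, which is 0.702%, and 539 were higher, which is 1.46%. In the region this count was 2 lower and 3 higher, and it was 0 lower when clone 5A.7, 2A.2, 2E.1 or 5A.2 was left out. The split moved with the scale. After centring each profile on chromosome 16 outside this region, 1064 windows were lower and 12 higher at that p. After division by the SD of each profile 906 were lower and 199 higher, while 0 passed after adjustment. The median difference over all windows tested was 0.021 as reported, −0.095 after centring and −0.046 after scaling, so these splits follow a shift of whole profiles. The median absolute difference was 0.18 in the Dppa domain and 0.070 over all windows, and 11.5% of all windows had an absolute difference above the domain's mean. That share sets single windows against a mean over 8 windows, so it is not a share of intervals of the domain's size. The median SE of a window's difference was 0.113.

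The genes of the region were described by the mean of the windows they overlap, and 12 of 15 had a lower mean on the ∆B allele. Over the autosomes, 41.9% of windows had a lower mean, and 1.36% separated completely in that direction. The shares over all genes were not computed. Of the 15 genes, the groups did not overlap at Morc1 alone, with 0.58 (5A.7), 0.83 (2A.2), 0.97 (3C.4) and 0.97 (5A.6) in ∆B clones against 1.08 (2E.1), 0.99 (1A.4) and 1.02 (5A.2) in controls. The margin was small, with 0.974 as the highest ∆B value and 0.985 as the lowest control value. The 5 windows of Morc1 include both separated windows given above and the one that lost 86.1% of its bases, so this is not a separate result. The difference at Morc1 was −0.19 (SE 0.097), and the adjusted p of its windows in limma was 1.00. Gm5485, which the deletion removes whole, lies in windows with 0.64, 0.97, 1.05 and 1.11 in ∆B clones (5A.7, 2A.2, 3C.4 and 5A.6) and 1.16, 1.06 and 1.18 in controls (2E.1, 1A.4 and 5A.2). Clones 5A.7, 2A.2 and, by a small margin, 3C.4 lay below all controls, and 5A.6 lay within their range.

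Dppa4 and Dppa2, left of ERCE B and next to or across ERCE A, showed smaller differences than Morc1. Dppa4 had 0.60 (5A.7), 0.80 (2A.2), 0.93 (3C.4) and 0.90 (5A.6) in ∆B clones, and 1.02 (2E.1), 0.54 (1A.4) and 0.99 (5A.2) in controls, a difference of −0.044 (SE 0.172). The lowest value at this gene thus belonged to a control clone. Dppa2 had 0.66, 1.05, 0.97 and 1.03 in the ∆B clones in that order and 1.05, 0.96 and 1.11 in the controls, a difference of −0.11 (SE 0.10), and 5A.7 alone lay below all controls. The long non-coding RNA gene 6430553K19Rik, at the left border, had a difference of −0.15 (SE 0.103).

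To the right of Morc1 lie genes with roles outside pluripotency. Trat1, an adaptor of the T cell receptor, had a difference of −0.18 (SE 0.181). Retnlb and Retnla share a window (−0.14, SE 0.148) with their relative Retnlg next to them (−0.13, SE 0.142), all encoding secreted resistin-like proteins. Dzip3, a ubiquitin ligase, had −0.12 (SE 0.148), Cip2a, an inhibitor of a protein phosphatase, −0.14 (SE 0.161), and the myosin gene Myh15 −0.096 (SE 0.103). At each of these 7 genes, clone 5A.7 had the lowest value of the 7 clones and clone 3C.4 the highest value of the ∆B clones, and the spread between ∆B clones was wider than the difference. At Cip2a, for example, clone 5A.7 had −0.43 and clone 3C.4 0.35, with controls from 0.072 to 0.16.

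**Figure D4:**
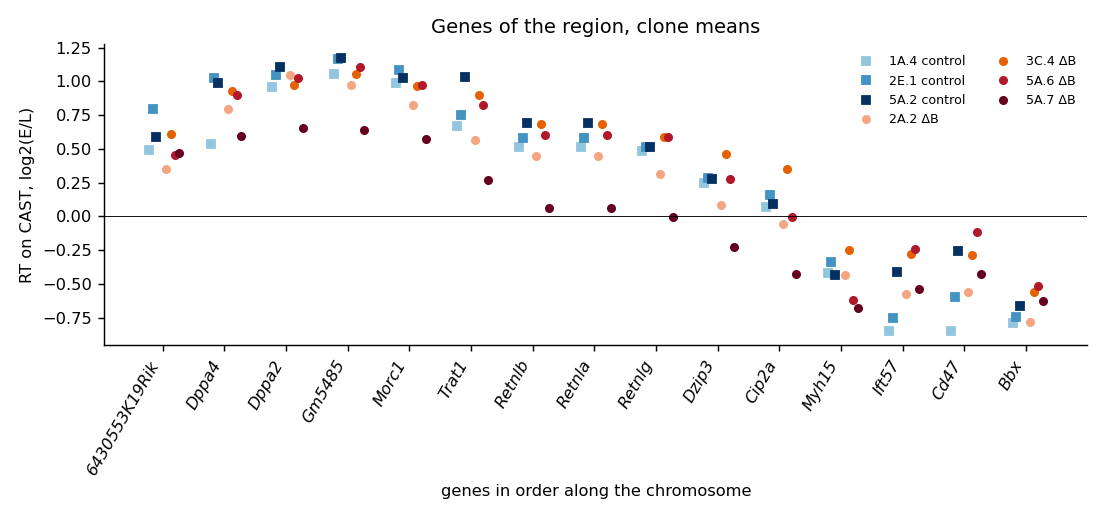
CAST log2(E/L) of the genes of the region in each clone, as the mean of the windows a gene overlaps, for ∆B and control clones. Of these genes, groups separate only at Morc1, by a small margin and as a mean over 5 windows. Of single autosomal windows, 1.36% separate in that direction, and the share over genes was not computed. At Ift57 and Cd47 the mean of ∆B clones is the higher one.

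The domain to the right, at chr16:49650001-50050000, differed in the other direction. The ∆B clones had −0.47 (5A.7), −0.58 (2A.2), −0.27 (3C.4) and −0.19 (5A.6), with a mean of −0.38 ± 0.18 (SD, n = 4 clones). The controls had −0.64 (2E.1), −0.84 (1A.4) and −0.35 (5A.2), with a mean of −0.61 ± 0.25 (SD, n = 3 clones). Clones 3C.4 and 5A.6 lay above all controls and the other pair did not, and the difference of 0.24 (SE 0.168) did not pass the test (exact permutation p = 0.200, adjusted p = 0.543). It was 0.25 within AOSN.B.COSN123 and 0.17 within A.B.COSN123. It was 0.12 without control clone 1A.4, 0.12 after centring, 0.15 after scaling and 0.37 without control clone 5A.2. Of the genes there, Ift57, part of the intraflagellar transport machinery of cilia, had a difference of 0.26 (SE 0.159), and Cd47, a surface protein that keeps macrophages from engulfing the cell, 0.22 (SE 0.196). Bbx, an HMG-box gene farther right, had 0.11 (SE 0.069).

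Just left of this interval, at chr16:49600001-49650000, was the largest difference of the region. The ∆B clones had −0.67 (5A.7), −0.71 (2A.2), −0.46 (3C.4) and −0.59 (5A.6), and the controls −0.90 (2E.1), −1.23 (1A.4) and −0.78 (5A.2). All ∆B clones were above all controls, and the difference was 0.36 (SE 0.119, unadjusted limma p = 0.00897, adjusted p = 1.00). A complete separation in the higher direction occurred in 3 of 74 windows of the region and in 972 of 36909 autosomal windows, which is 2.63%. The control values here rest partly on clone 1A.4, without which 0 windows of the region were higher at an unadjusted p of 0.05.

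In the flanks of the Dppa domain the differences were smaller than in it. In the left flank the ∆B clones averaged −0.52 ± 0.11 (SD, n = 4 clones) and the controls −0.43 ± 0.17 (SD, n = 3 clones), a difference of −0.098 (SE 0.112, exact permutation p = 0.457). In the right flank they averaged −0.22 ± 0.17 (SD, n = 4 clones) and −0.14 ± 0.04 (SD, n = 3 clones), a difference of −0.088 (SE 0.089, exact permutation p = 0.514). The ∆B clones lay on both sides of the controls there, from −0.44 in 5A.7 to −0.018 in 3C.4. Over the rest of chromosome 16 (1885 windows) the difference was 0.065 (SE 0.066, exact permutation p = 0.543), with clone 5A.7 the highest of the 7 clones at 0.020. Each clone's mean there covers the windows that have a value in that clone, so the sets of windows differ between clones. Clone 5A.7 had the lowest shares of windows with a value, and the part of this in its mean was not tested. The adjusted p was 0.543 for each of these intervals.

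The musculus allele of the same clones carries the same deletions on both sides of the comparison within a line. Only within a line does it therefore show how far these clones differ apart from the CAST deletion. Over the Dppa domain it had −0.76 (5A.7), −0.26 (2A.2), −0.18 (3C.4) and 0.48 (5A.6) in ∆B clones, and −0.82 (2E.1), −0.056 (1A.4) and 0.023 (5A.2) in controls. The clones of A.B.COSN123 had the lowest values in both groups. The groups differed by 0.10 (SE 0.368, exact permutation p = 0.857), and the area over the domain and its flanks by 1.62 (SE 5.71, exact permutation p = 0.8286). Within AOSN.B.COSN123 the difference over the domain was 0.028, and within A.B.COSN123 it was 0.060. The CAST allele was earlier than the musculus allele of the same clone by 1.03 ± 0.37 (SD, n = 4 clones) in ∆B clones and by 1.30 ± 0.51 (SD, n = 3 clones) in controls. The difference between these gaps was −0.27 (SE 0.348, exact permutation p = 0.514). Between clones, the SD of the musculus allele was larger than that of the CAST allele in both groups, 0.51 against 0.17 in ∆B clones and 0.46 against 0.08 in controls. The SDs, SEs and permutation tests of the musculus allele and of the gaps pool both lines, whose musculus deletions differ. They thus hold the difference between the lines as well as that between clones.

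Against the unmodified CAST alleles of 39 clones of other lines, which had 0.70 to 1.30 over the Dppa domain (median 1.00), the ∆B clones ranged from the bottom to the middle. Clone 5A.7 lay below all 39, 5 of the 39 lay below clone 2A.2, 14 below 3C.4 and 18 below 5A.6. Of the controls from the same lines, 10 of the 39 lay below clone 1A.4, 26 below 5A.2 and 27 below 2E.1. When all CAST control clones of the series served as controls, the difference over the domain was −0.15 and passed the test before adjustment (exact permutation p = 0.0353). With the same controls the area over the domain and its flanks was −0.41 (exact permutation p = 0.827), and the difference in the domain to the right 0.051 (exact permutation p = 0.682). In the domain to the right, where these 39 clones had −1.25 to 0.050 (median −0.43), all 4 ∆B clones lay within their range.

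Of the other deletions carried alone on CAST, that of the Dppa2 promoter, ATSS, which lies in ERCE A, was the one with more than 1 clone (3 clones with 1 library each). These clones belong to the line ATSS.BTSS.CTSS. By that name, their musculus allele lacks ATSS, BTSS and the transcription start site of ERCE C (CTSS). Their musculus allele thus differs from that of the ∆B clones too, and the part of this was not tested. The ∆ATSS clones had 0.56 (A1), 0.86 (A8) and 0.90 (C4) over the Dppa domain, with a mean of 0.77 ± 0.19 (SD, n = 3 clones), a range that overlaps that of the ∆B clones. The ∆B clones were 0.080 higher (SE 0.138, exact permutation p = 0.486), with the opposite sign after centring (−0.24), after scaling (−0.072) and without clone A1 (−0.026), so deletion of ERCE B was not shown to differ from that of the Dppa2 promoter, nor to equal it. Their area over the domain and its flanks was higher by 7.03 (SE 3.65, exact permutation p = 0.114), and this difference had the opposite sign after centring on the rest of chromosome 16 (−5.52) or scaling by the SD (−2.36). Over the domain to the right the difference was 0.039 (SE 0.093, exact permutation p = 0.714). Of CAST alleles with a smaller deletion in 1 clone each, that without the Morc1 promoter alone (BTSS, clone C11) had 0.46 over the Dppa domain. That without a right part of ERCE C (CR11.8k, clone 50) had 0.86, and that without CTSS (clone C4 of another line) 1.18. Clone C11 is of the line BTSS.CTSS, and its musculus allele is marked as deleted too. The allele without BTSS, a 140 bp deletion inside the segment that ∆B removes, thus had a lower value than all ∆B clones. With a single clone this comparison has no test.

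**Figure D5:**
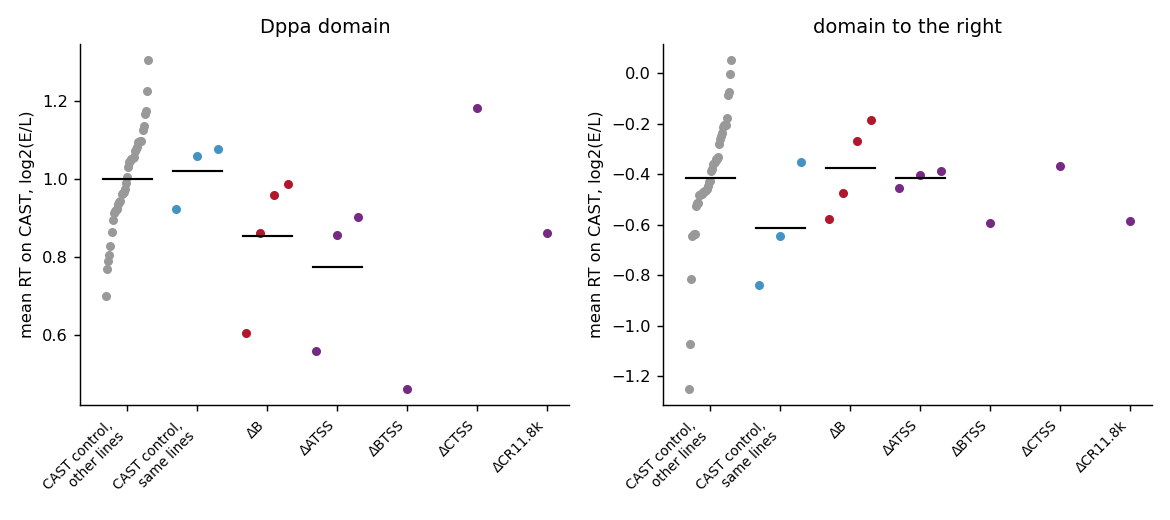
Mean CAST log2(E/L) of clones (vertical axis) over the Dppa domain and over the domain to the right, for control clones of other lines, controls of the same lines, ∆B clones and clones with ∆ATSS, ∆BTSS, ∆CTSS or ∆CR11.8k on CAST. ∆B clone 5A.7 (0.61) lies below the 39 controls of other lines over the Dppa domain, and the other ∆B clones lie within their range of 0.70 to 1.30.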

How the data were processed

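Per the labels and the study's methods, F121-9 cells were labelled with BrdU for 2 h and sorted into early and late S phase. The authors trimmed reads (Trim Galore and cutadapt in the submitters' processing notes), aligned them with bowtie2 to mm10 with SNPs masked, split them by homolog with SNPsplit, removed duplicates and counted 50 kb windows with bedtools. Tool versions are not given in the sources used here. The deposited values are log2 ratios of early to late reads, which the authors had scaled, quantile-normalized and smoothed by loess. Smoothing ties neighbouring windows and fills windows inside the deletion, and quantile normalization brings profiles to a like scale, although their SDs and means still differ. Genome 1 in the headers is musculus strain 129 and genome 2 CAST, as taken from the study's text and table of genotypes.

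From the deposited log2 values, cultures were averaged to clones. Of 138 columns, 0 had no sample. Means over intervals and areas (trapezoid rule) were compared between clones with two-sided exact permutation tests, with Benjamini-Hochberg adjustment over 6 intervals of the CAST allele. p-values measure the spread between clones of shared origin. Windows were tested with limma 3.58.1 (lmFit, eBayes, R 4.3.3) over 36909 windows with a value in all 7 clones, and the procedures were tested on simulated data. The random-region p of the study's methods was not used. Genes named are the protein-coding genes with a full symbol in 46.5 to 50.5 Mb, with Gm5485 and 6430553K19Rik. Members and lists were chosen with earlier results of these data known. Guide sequences came from the study's tables and were matched to GRCm38.p6. Means and permutations were computed in Python 3.11.15 (pandas 2.3.3, numpy 2.4.6) and figures drawn with matplotlib 3.10.9.

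Alternatives were other intervals, controls, centring and scaling, single cultures, cultures as units, the replicate block, AOSN.B.COSN123 alone, limma with trend and robust fits, other window filters and each clone left out. Leaving out culture 2 of clone 1A.4 and the line as a block were added after seeing the data.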

Additional observations from a re-analysis of the deposited data

Results flagged for a closer look

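Of 52 groups of 4 to 10 values examined, 3 held a value far from the rest, where chance gives about 1 in 20 groups. Culture 2 of control clone 1A.4 had a mean CAST log2(E/L) of 0.68 over the Dppa domain, whereas the nearest of the other 5 control libraries had 1.04. Over the rest of chromosome 16, the musculus allele of ∆B clone 5A.7 had a mean of −0.052, and the nearest of the other ∆B clones had −0.25. Each of these means covers the windows with a value in that clone, so the sets of windows can differ. The earliest window of the CAST domain in clone 5A.7 had 0.66, and that of the nearest ∆B clone had 1.05. Of the quantities examined, 0 had opposite directions in all clones of the 2 lines.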

How the results depend on the processing

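Of 214 alternative values of 13 results, 196 kept their direction and their side of the threshold, 1 passed the threshold and 17 changed direction. With a clone left out, or AOSN.B.COSN123 alone, the smallest possible permutation p is 0.067 or 0.1. The side of the threshold was therefore fixed in advance in those settings. Counts of windows stayed at 0 and have no direction. The value that passed it was the difference over the Dppa domain against every CAST control clone of the series (−0.15, exact permutation p = 0.0353). With those controls the area over the domain and its flanks became −0.41, the domain to the right 0.051, the left flank became 0.012, the right flank 0.048 and the rest of chromosome 16 −0.0016. Centring and scaling moved the domain difference to −0.28 and −0.21, the area to −8.81 and −7.13, the left flank to −0.21 and −0.18, the right flank to −0.20 and −0.17 and the domain to the right to 0.12 and 0.15. The rest of chromosome 16 also changed direction after centring (−0.053) and scaling (−0.0039). On the musculus allele the area became −1.53 after centring and −0.84 after scaling. Against ∆ATSS the domain difference became −0.24 after centring and −0.072 after scaling, and the area −5.52 and −2.36. Both settings also moved the median difference over all windows tested, from 0.021 to −0.095 after centring and −0.046 after scaling. The cause was not tested.

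With single clones left out, the domain difference ranged from −0.21 to −0.083 (without 5A.7), the area difference from −6.36 to −2.41 and the difference in the domain to the right from 0.12 to 0.37. The flanks ranged from −0.16 to −0.0018 on the left and from −0.16 to −0.015 on the right, and the rest of chromosome 16 from 0.013 to 0.10. The musculus allele changed direction without 5A.6 (mean −0.12, area −1.20) or 2E.1 (mean −0.16, area −2.84), with ranges of −0.16 to 0.29 and −2.84 to 4.51. The gap between alleles ranged from −0.43 to 0.027 (without 2E.1). Against ∆ATSS, the mean ranged from −0.026 (without A1) to 0.16 and the area from 4.49 to 9.15. AOSN.B.COSN123 alone gave −0.054 for the domain.

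Windows past the adjusted threshold in limma numbered 0 in each of the 18 other settings, and those at an unadjusted p of 0.05 or less ranged from 320 (without 1A.4) through 798 as reported and 1929 (without 2E.1) to 2476 (every CAST control clone). With the replicate block, cultures as units gave −0.17 for the domain (exact permutation p = 0.103) and −4.26 for the area (exact permutation p = 0.081), and limma 484 windows at that unadjusted p and 0 after adjustment. These permutation p-values count cultures of a clone as independent, although such cultures correlated at 0.49 in limma. They are therefore not comparable with the p-values over clones. The replicate block changed no other call. The replicate numbers did not pair the samples: over 21 pairs of clones, deviations of same-numbered cultures correlated at −0.31 to 0.23, above 0.1 in 4 pairs.

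The number of clones limits these comparisons, since 4 against 3 cannot give an exact p under 0.0286, and the depth in reads is unknown.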
